A study of Rattus norvegicus and Mus musculus with 10 samples.

Results

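Receptors of the NK lectin-like families and NKp46 were followed in leukocytes of the brain and its borders. The genes were those whose symbol begins with Klr, Ly49 or Ncr1 and that had 20 or more UMIs (unique molecular identifiers, each a counted mRNA molecule) in the annotated cells. This gave 20 of the 29 rat genes with such names, out of 32883 rat genes, and 24 of the 27 mouse genes, out of 31053. Just inside the threshold were mouse Klrg2 with 33 UMIs and mouse Klra5 with 45. Just outside it were rat Ly49s4 with 17 and mouse Klrb1 with 12.

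The rat cells came from naive Lewis rats (25, as the labels give it) and from 6 places: blood, choroid plexus, dura, pia, the central nervous system (CNS) and its fluid (CSF). Solid tissues were sorted for CD45+ leukocytes that an intravenous CD45 antibody had not stained (CD45iv-), since that antibody marks cells still inside vessels. Blood mononuclear cells came from a density gradient and, like CSF cells, were not sorted. Mouse cells came from the skull dura of C57BL/6 mice, 4 unimmunized (naive) and 3 at the peak of active experimental autoimmune encephalomyelitis (EAE), an induced autoimmune disease of the CNS. Each group was a single pooled library. Differences therefore could not be tested, and p-values are not given. Intervals are exact 95% intervals that cover counting error only.

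These receptors let natural killer (NK) cells and some T cells weigh activating against inhibitory signals. CD94 (Klrd1) pairs with NKG2 proteins (Klrc genes) and reads non-classical MHC class I, whereas Ly49 receptors (the Klra and Ly49 genes) bind MHC class I directly in rodents. NKG2D (Klrk1) senses stress ligands, NKp46 (Ncr1) is an activating receptor that marks NK cells and some innate lymphoid cells (ILC), and NKR-P1 receptors (Klrb1 genes) bind Clec2 ligands. Each NK cell expresses its own subset of the Ly49 genes.

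Most of these genes are neighbours. In the mouse (GRCm38), 21 of the 24 lay between positions 128609227 and 131247362 of chromosome 6, and Ncr1 lay apart on chromosome 7 (4337724 to 4345164). Neighbouring copies are alike, so reads can be hard to assign to a single copy. In the last 500 bases of the mouse coding transcripts, 49.4% of the 50-base words of Klra9 occurred in another gene, 43.5% of those of Klrc1 and 31.5% of those of Klra3. For Klrd1, Klrk1, Klre1 and Ncr1 the share was 0%. These shares cover only that end of the transcripts. Each mouse dura group also had a B cell receptor library, and which transcript end the expression reads cover was not checked. The shares may therefore not show which mouse genes are ambiguous in these counts. Levels of single Ly49, Klrc and Klrb1 genes are therefore uncertain, and the same check was not run for the rat files' genome build.

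The likeness extended to the rat promoters (RefSeq, GRCr8, 250 bases before to 50 after the gene start), which matched 17 of the 20 rat genes by symbol, 16 distinct sequences. Over 28 pairs of Ly49 promoters, 67.0% to 82.3% of the 300 bases were identical after alignment (median 74.5%). Over 28 pairs without a Ly49 gene the range was 54.7% to 62.7%. The most alike pair was Ly49si1 and Ly49i2, shown because their levels in these data lay in different cells: Ly49si1 was highest in a myeloid cluster and Ly49i2 in NK cells. Capitals mark bases that differ or have no partner in the alignment of the pair, and both are given 5′ to 3′ on the minus strand.
Ly49si1, chr4:165286127-165286426: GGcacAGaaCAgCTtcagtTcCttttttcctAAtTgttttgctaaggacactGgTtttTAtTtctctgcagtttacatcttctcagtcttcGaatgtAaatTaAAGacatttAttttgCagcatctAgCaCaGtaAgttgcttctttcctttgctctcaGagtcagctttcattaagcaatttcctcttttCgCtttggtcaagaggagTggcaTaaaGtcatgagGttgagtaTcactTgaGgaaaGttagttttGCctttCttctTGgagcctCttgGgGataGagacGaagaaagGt
Ly49i2, chr4:166180633-166180932: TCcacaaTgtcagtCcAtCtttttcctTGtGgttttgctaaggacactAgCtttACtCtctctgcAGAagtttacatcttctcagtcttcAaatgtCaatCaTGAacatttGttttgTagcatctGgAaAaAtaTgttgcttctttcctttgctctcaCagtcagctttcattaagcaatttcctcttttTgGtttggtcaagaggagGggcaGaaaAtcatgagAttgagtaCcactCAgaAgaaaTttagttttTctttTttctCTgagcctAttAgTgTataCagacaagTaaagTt
The promoter of Klrc1, the inhibitory partner of CD94 (NKG2A), is shown for contrast, with a Runx motif in capitals (ACCACA, which is TGTGGT on the other strand).
Klrc1, chr4:164838397-164838696, minus strand: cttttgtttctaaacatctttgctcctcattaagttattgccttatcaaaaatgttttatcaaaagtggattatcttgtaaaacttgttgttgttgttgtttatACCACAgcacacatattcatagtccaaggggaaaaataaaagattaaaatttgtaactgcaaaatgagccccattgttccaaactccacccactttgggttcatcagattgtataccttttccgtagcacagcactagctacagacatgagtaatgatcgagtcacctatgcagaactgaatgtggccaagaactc

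Searched on both strands, the Runx motif TGTGGT occurred in 4 of the 16 promoters (Klrk1, Klrc1, Klri2 and Ly49i2), against 17.3% of 33469 rat promoters of the same length. The TCF motif CTTTGA occurred in 5 of 16 against 16.1%, and the T-box motif TCACACC in 0 of 16 against 3.83%. In the pair above, Ly49i2 held the Runx letters and Ly49si1 did not. These are matches of letters in a 300-base window and are given as description.

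The annotated libraries held 2272 to 4953 rat cells and 2776 (naive) and 4579 (EAE) mouse cells, with median UMIs per cell of 981 to 2704 in rat, 4163.5 in naive and 11743 in EAE. NK clusters, named in the deposited annotation, held 155 cells in rat blood, 275 in CSF, 58 in CNS, 164 in pia, 357 in dura and 311 in choroid plexus, and 106 naive and 154 EAE mouse cells. The NK label was compared with Ncr1, Nkg7, Eomes, Prf1, Gzma and Klrd1. All 6 had UMIs in each NK cluster (Eomes 1 UMI in pia). They also had UMIs in rat CD8 Tc and CD4 Tc of dura and in mouse CD8Tc, so presence cannot decide the label. Their sum was 5490 CPM (UMIs per 1000000 UMIs of the cluster) in pia NK cells and 8466 to 24279 in the other rat NK clusters. In rat CD8 Tc outside the CNS it was 2830 to 4026. In mouse it was 4487 (naive) and 4872 (EAE) in NK cells, against 1525 and 1536 in CD8Tc. Klrd1 and Ncr1 are themselves receptors followed here. The pia cluster stood apart: 58.5% of its cells (96 of 164) had a UMI of Cd3e, Cd3d or Cd3g, against 1.93% to 18.1% in the other rat NK clusters, and its median depth was 666.5 UMIs. The pia family sums, count and main genes are therefore also given without those cells, and shares of pia cells with all of them. In the sorted tissues, genes of dissociation stress summed to 5150 to 6692 CPM in NK cells, against 583 in blood and 458 in CSF. Macrophage genes summed to 3538 to 4241 CPM there, against 1353 and 739. The part of these in the tissue differences was not tested.

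The leading pattern in rat NK cells was a low level of Ly49 mRNA outside blood and the CNS. Summed over the 9 Ly49 genes, the level was 1360 CPM (1253 to 1473) in blood, 996 (859 to 1150) in CNS, 568 (444 to 717) in pia, 467 (400 to 541) in choroid plexus, 258 (222 to 299) in CSF and 244 (202 to 291) in dura. Blood thus exceeded dura 5.58-fold (4.58 to 6.84), CSF 5.26-fold (4.45 to 6.25) and choroid plexus 2.92-fold (2.46 to 3.47). The other 11 genes behaved differently in dura and choroid plexus. Their sum was 6888 CPM (6646 to 7138) in blood, 7006 in CNS, 6726 (6500 to 6959) in dura and 6780 in choroid plexus, all with overlapping intervals, and lower in CSF (3764) and pia (4121). The level sum covers genes that differ: in choroid plexus Klrd1 was above blood, while Klrb1a, Ncr1 and Klrg1 were below it (values further on). This split into families was chosen after the values were seen.

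Without cells carrying a Cd3 UMI, the Ly49 sum was 1354 CPM in blood, 618 (431 to 860) in pia and 214 in dura. The sum of the other genes in pia was 6342 (5703 to 7033) against 7510 (7228 to 7802) in blood. That sum was then 6814 (6549 to 7087) in choroid plexus, with an interval below that of blood. In dura it was 6995 (6753 to 7243) and in CNS 6970 (6587 to 7370), with intervals still overlapping that of blood. With only cells of 1000 or more UMIs, which left 27 of the 164 pia cells, the pia Ly49 sum was 1222 CPM (895 to 1630), near that of blood (1369). The low Ly49 level of pia was thus not seen among its deep cells, whereas dura (216), CSF (256) and choroid plexus (458) stayed low among deep cells.

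**Figure D1:**
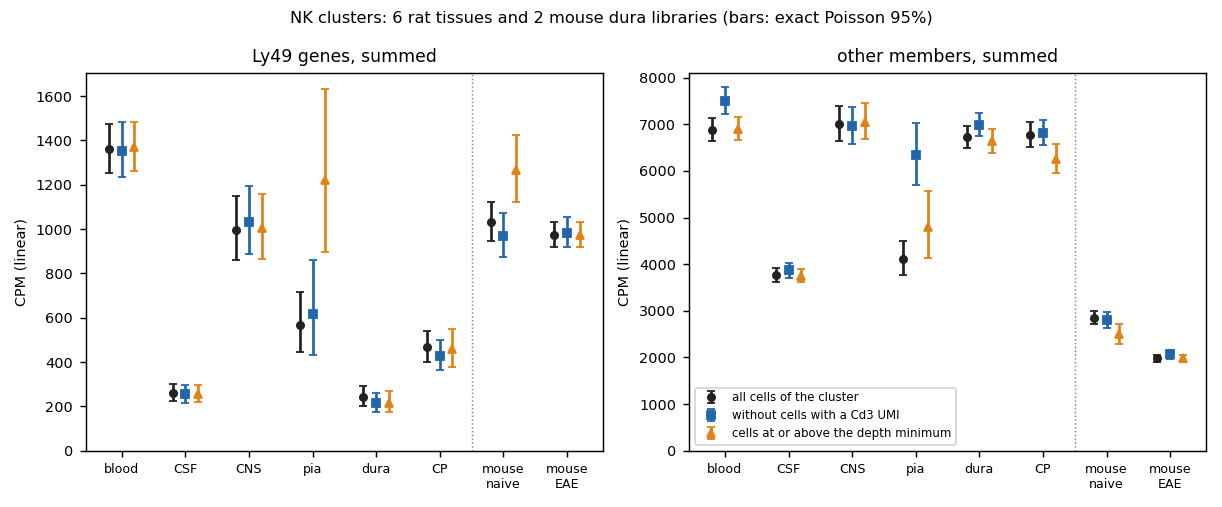
Summed level of the Ly49 genes (left) and of the other members (right) in the NK clusters, in CPM on linear axes, for 6 rat tissues (CP, choroid plexus) and the 2 mouse dura libraries. Black circles are all cells, blue squares cells without a Cd3 UMI, orange triangles cells at or above the depth minimum (1000 UMIs in rat, 5722 in mouse), and bars exact Poisson 95% intervals. Ly49 sums in dura, CSF and choroid plexus sit far below blood in each set of cells, and the pia value moves from 568 to 1222.

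Among 19 genes with 20 or more UMIs over both sides, those at least 2-fold lower than in blood numbered 13 in CSF, 4 in CNS, 8 in pia, 9 in dura and 9 in choroid plexus. Of all genes, 14.6%, 8.16%, 23.9%, 10.9% and 17.0% were that much lower in the same comparisons. At least 2-fold higher were 0 members in CSF, 1 in CNS, 0 in pia, 1 in dura and 0 in choroid plexus, beside 8.74%, 6.32%, 7.60%, 10.4% and 8.42% of all genes. The median log2 ratio of the members was -1.50 in CSF, -0.11 in CNS, -0.90 in pia, -0.69 in dura and -0.99 in choroid plexus, against -0.24, -0.01, -0.32, -0.05 and -0.24 over all genes. The 5 comparisons share the blood library. The pia count of 8 was 5 without Cd3-carrying cells, 4 with cells of 1000 or more UMIs, 5 with TMM-scaled totals and 14 with cells weighted equally.

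**Figure D2:**
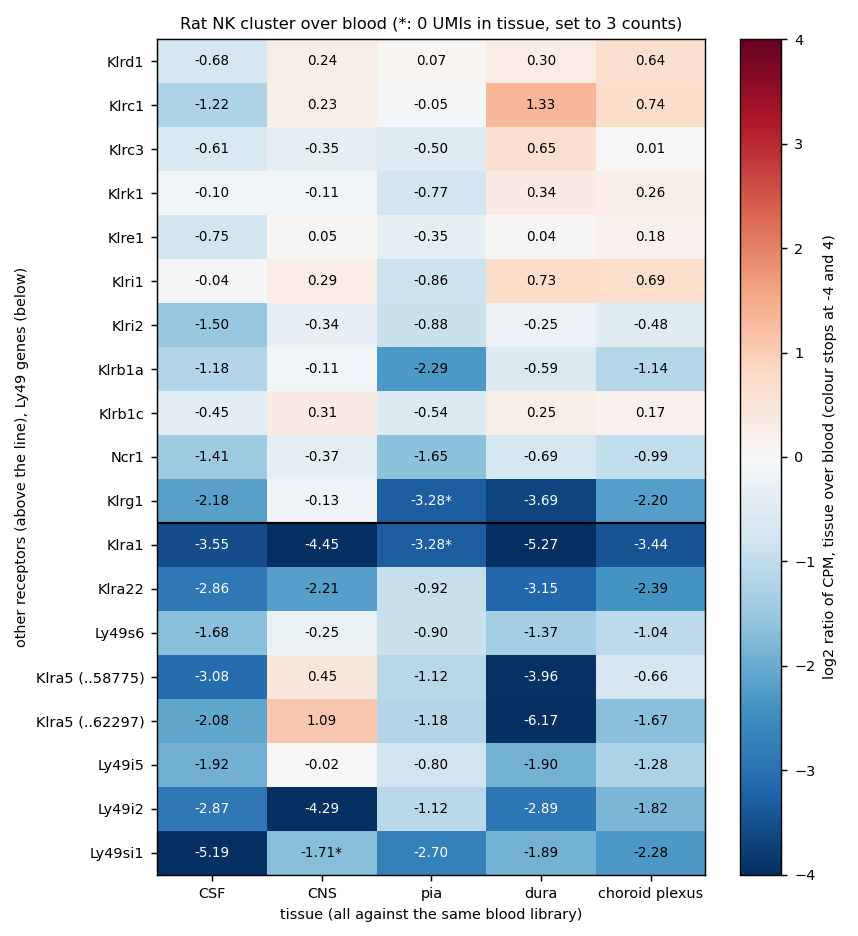
Log2 ratio of CPM in the rat NK cluster, each tissue over the same blood library, for 19 genes. Rows above the line are the receptors other than Ly49, rows below it the Ly49 genes, and asterisks mark genes with 0 UMIs in the tissue, set to 3 counts. The Ly49 rows are blue in CSF, dura and choroid plexus, and Klra5 ENSRNOG00000062297 is higher in CNS, at 1.09.

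Klra1 was more than 10-fold lower than in blood in CSF, CNS, dura and choroid plexus. Its level was 233 CPM in blood, 19.98 in CSF, 10.7 in CNS, 0 in pia, 6.05 in dura and 21.4 in choroid plexus. Blood was 11.7-fold (6.66 to 22.1) above CSF, 10.9-fold (5.32 to 25.9) above choroid plexus and at least 9.72-fold above pia. In CNS and dura the gene rested on 2 and 3 UMIs, with ratios of 21.9 (5.91 to 183) and 38.6 (12.8 to 190). Even in blood its 103 UMIs came from 17 of 155 cells, about 6.06 UMIs in each cell with any. Klrd1, by contrast, had a UMI in 151 of those 155 cells.

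Klra22 and Ly49i2 were low in the CNS as well. Klra22 measured 197 CPM in blood, 27.1 in CSF, 42.6 in CNS, 104 in pia, 22.2 in dura and 37.5 in choroid plexus. In pia, 12 of its 13 UMIs were in cells with a Cd3 UMI, and without those cells it stood at 17.7 CPM against 139 in blood. Ly49i2, named for an inhibitory receptor, measured 104, 14.3, 5.33, 48.0, 14.1 and 29.5 CPM in the same order. Blood was 8.89-fold (4.73 to 18.5) above dura for Klra22 and 7.39-fold (3.31 to 19.4) for Ly49i2.

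The 2 gene IDs that share the symbol Klra5 went the other way in the CNS. ENSRNOG00000062297 measured 145 CPM in blood, 34.3 in CSF, 309 in CNS, 64.0 in pia, 2.02 in dura and 45.6 in choroid plexus. It was the single gene at least 2-fold higher in CNS (2.13-fold, 1.47 to 3.09). ENSRNOG00000058775 measured 156, 18.6, 213, 72.0, 10.1 and 99.2 CPM in that order, and its CNS ratio of 1.36 had an interval including 1 (0.899 to 2.04). In dura blood was 15.5-fold (6.34 to 49.3) above tissue for this ID. The CNS cluster had 58 cells, and each ID had UMIs in 16 of them.

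Ly49s6, named for a stimulatory receptor, was the most abundant Ly49 gene of rat NK cells in counts. It measured 374 CPM in blood, 117 in CSF, 314 in CNS, 200 in pia, 145 in dura and 182 in choroid plexus, so the span was narrower than for Klra1. Blood was 3.20-fold (2.44 to 4.22) above CSF, 2.58-fold (1.94 to 3.45) above dura and 2.05-fold (1.54 to 2.76) above choroid plexus. Ly49i5 measured 97.5, 25.7, 95.9, 56.0, 26.2 and 40.2 CPM, with CNS at the blood level. Ly49si1 was highest in blood at 52.1 CPM and at 0 to 14.1 elsewhere, and its highest level lay in myeloid cells.

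**Figure D3:**
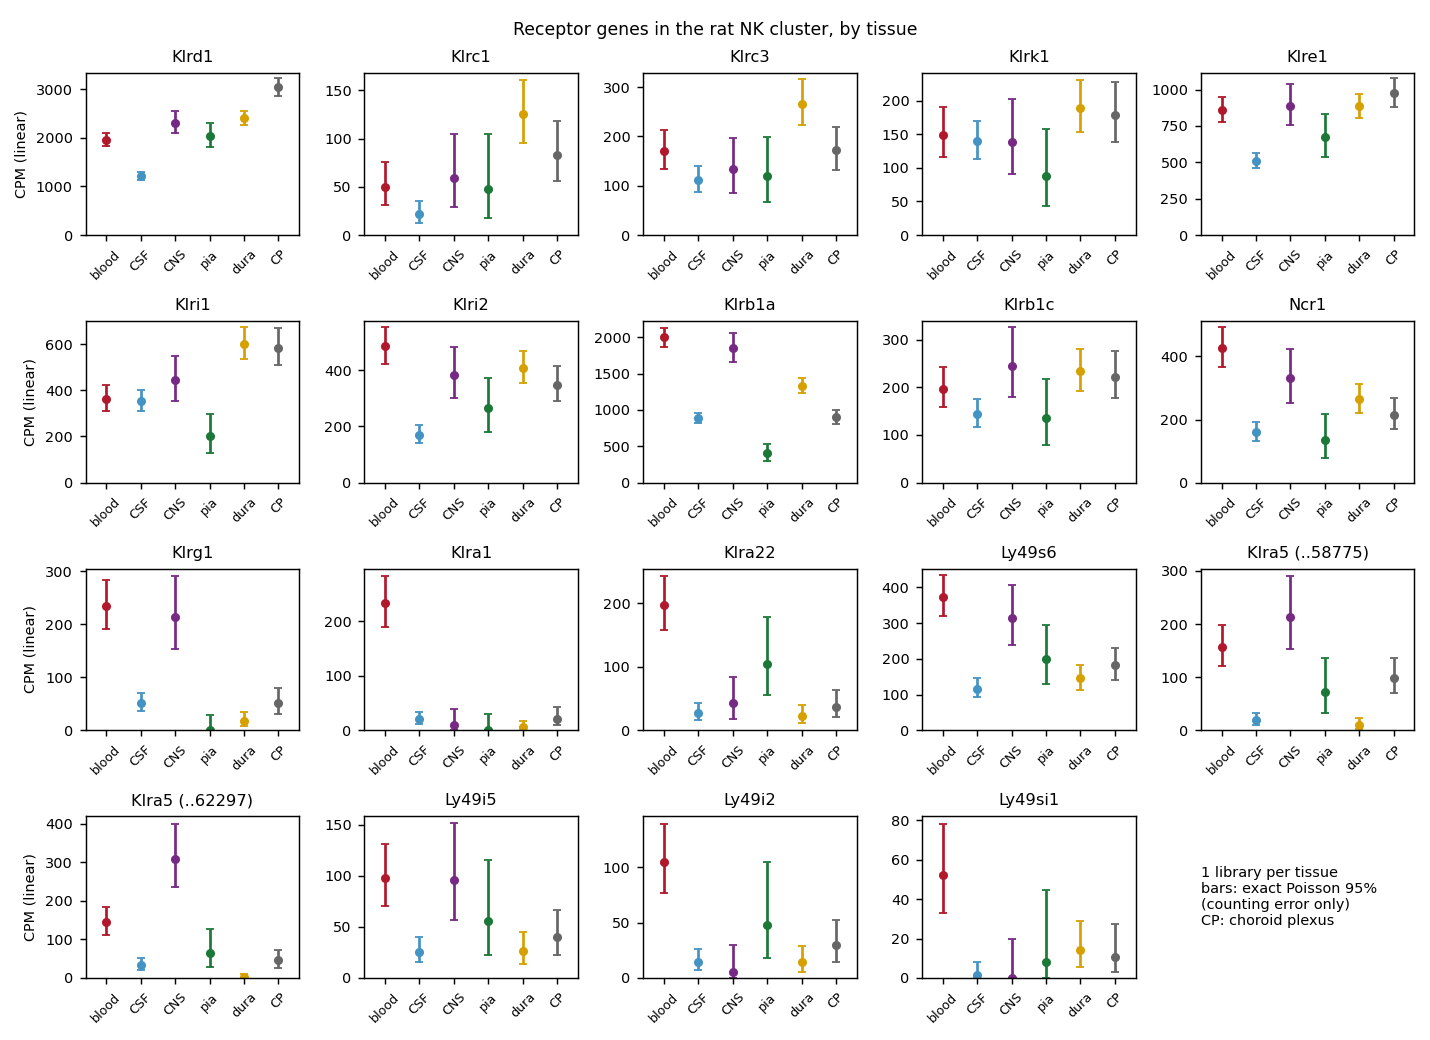
CPM of 19 receptor genes in the rat NK cluster of each tissue (1 library each, linear axes from 0), with exact Poisson 95% intervals. Klra1 stands at 233 in blood and at 0 to 21.4 elsewhere, while Klrd1 lies between 1219 and 3046 in all 6 tissues.

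The CD94 and NKG2 genes were not low in dura and choroid plexus. Klrd1 measured 1958 CPM in blood, 1219 in CSF, 2318 in CNS, 2049 in pia, 2405 in dura and 3046 in choroid plexus, the last 1.56-fold (1.42 to 1.70) above blood. Klrc1 measured 49.9, 21.4, 58.6, 48.0, 125 and 83.1 CPM, and was the single gene at least 2-fold higher in dura (2.51-fold, 1.52 to 4.28). Klrc3, another NKG2 gene, measured 170, 111, 133, 120, 266 and 172 CPM and was 1.57-fold (1.17 to 2.11) above blood in dura. Both NKG2 genes had their highest NK level in dura, where the Ly49 sum was low, with an interval overlapping that of CSF.

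NKG2D (Klrk1) differed little: 150 CPM in blood, 140 in CSF, 139 in CNS, 88.0 in pia, 189 in dura and 180 in choroid plexus, each ratio to blood having an interval that included 1. Klre1 and the Klri genes encode receptors that pair with each other in rodents. Klre1 measured 859, 510, 890, 672, 885 and 976 CPM in the same order. Klri1 measured 363, 353, 442, 200, 601 and 584 CPM, 1.66-fold (1.36 to 2.02) above blood in dura and 1.61-fold (1.31 to 1.99) in choroid plexus. Klri2 was highest in blood instead, with 485, 171, 384, 264, 409 and 349 CPM in that order. The fold of its lower level in CSF was 2.83 (2.25 to 3.57).

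The NKR-P1 gene Klrb1a, whose product is the classical rat NK marker CD161, measured 1997 CPM in blood, 883 in CSF, 1854 in CNS, 408 in pia, 1330 in dura and 904 in choroid plexus. Blood was 4.89-fold (3.69 to 6.62) above pia, 2.26-fold (2.04 to 2.51) above CSF and 2.21-fold (1.95 to 2.51) above choroid plexus. Without Cd3-carrying cells pia was at 689 CPM against 2165 in blood. Klrb1c varied less, with 197, 144, 245, 136, 234 and 223 CPM in the order given.

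Ncr1 measured 426 CPM in blood, 160 in CSF, 330 in CNS, 136 in pia, 264 in dura and 214 in choroid plexus. It was 2.67-fold (2.10 to 3.40) lower in CSF and 1.61-fold (1.28 to 2.03) lower in dura. Klrg1, an inhibitory receptor that binds cadherins, split the tissues sharply: 233 CPM in blood and 213 in CNS, against 51.4 in CSF, 50.9 in choroid plexus, 18.1 in dura and 0 in pia. Blood was 12.9-fold (6.52 to 28.9) above dura, 4.54-fold (3.08 to 6.84) above CSF and at least 9.72-fold above pia. Klra2 is the remaining rat gene of the 20, with 0 to 2 UMIs in each NK cluster.

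In pia without the Cd3-carrying cells, 68 cells remained, and their levels are set beside those of blood without such cells. Klrd1 was at 2685 CPM against 2086 in blood, and Klrc3 at 177 against 195. Ncr1 was at 283 against 475, and Klrg1 at 0 against 263. The low Ncr1 and Klrg1 levels of pia thus stayed below blood in these cells. Ly49s6 was at 194 CPM against 370. Each Klra5 ID was at 106 against 164, from 6 UMIs in pia. Klrc1 rested on 3 UMIs.

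Cytotoxic effectors and cytokines of the same cells passed 2-fold in both directions. Of 13 counted, 8 were lower and 3 higher in CSF, 6 lower and 2 higher in dura, and 5 lower and 2 higher in choroid plexus. Of 12 counted, 7 were lower and 2 higher in pia, and 0 lower and 3 higher in CNS. Of all genes, 14.6% were lower in CSF, 10.9% in dura, 17.0% in choroid plexus, 23.9% in pia and 8.16% in CNS. The shares of all genes that were higher were 8.74%, 10.4%, 8.42%, 7.60% and 6.32% in the same order. The median log2 ratio of the list was -1.55 in CSF, -1.50 in pia, -0.47 in choroid plexus, -0.40 in dura and 0.24 in CNS. Gzma, a granzyme, was at 6748 CPM in blood, 8450 in CNS, 1098 in CSF, 418 in choroid plexus, 96.0 in pia and 82.6 in dura. Prf1 (perforin) followed the same order of blood and CNS above the rest: 4529, 6212, 1549, 764, 184 and 508 CPM. Xcl1, a chemokine, was the gene with the largest ratio of that list in CNS, pia, dura and choroid plexus, at 369 CPM in blood and 2866 in dura.

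Of 15 counted adaptors and proximal signalling genes, 1 was at least 2-fold lower in CSF (14.6% of all genes were), 0 in CNS (8.16%) and 3 in choroid plexus (17.0%). The counts were 3 of 16 in dura (10.9%) and 6 of 13 in pia (23.9%), and 0 were at least 2-fold higher in these 5 comparisons. Tyrobp, which encodes DAP12, the adaptor of activating Ly49 receptors and CD94-NKG2C, measured 5714 CPM in blood, 3881 in CSF, 6052 in CNS, 2137 in pia, 6212 in dura and 7740 in choroid plexus. Transcription factors in dura had a median log2 ratio of 0.58, against -0.05 over all genes, with 2 of 8 at least 2-fold higher and 1 lower. In CSF 0 of 8 were higher and 1 lower, in CNS 0 and 0 of 7, in pia 1 and 3 of 6 and in choroid plexus 1 and 1 of 7. Among them Zeb2 had the lowest ratio of its list in CSF, pia, dura and choroid plexus (52.1 CPM in blood, 8.06 in dura). Of all genes, 8.74% were at least 2-fold higher in CSF, 6.32% in CNS, 7.60% in pia, 10.4% in dura and 8.42% in choroid plexus. At least 2-fold lower were 14.6%, 8.16%, 23.9%, 10.9% and 17.0% in the same order. Of other NK receptors, 2 of 10 were higher and 3 lower in CSF, 0 and 2 of 8 in CNS, 1 and 3 of 9 in pia, 3 and 1 of 10 in dura and 4 and 2 of 11 in choroid plexus. Among them Il18r1 had the largest ratio in pia, dura and choroid plexus (15.9 CPM in blood, 198 in dura). Fcgr3a, the Fc receptor CD16, had the lowest in CSF, pia, dura and choroid plexus, with 129 CPM in blood and 2.02 in dura.

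Of genes for ligands, 5 were counted in each comparison, and RT1-CE5, a rat MHC class I gene, was at 237 CPM in CSF against 2783 in blood. The MHC class I genes also include near-identical copies, so that level is uncertain too. At least 2-fold lower were 3 of the 5 in CSF, 1 in dura, 1 in choroid plexus and 0 in CNS and pia, beside 14.6%, 10.9%, 17.0%, 8.16% and 23.9% of all genes in that order.

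Per cell, the shares of cells were compared after thinning each cell to 500 UMIs. A Ly49 gene other than Ly49si1 and Klra2 was expected in 30.9% (23.8 to 38.8) of blood and 29.4% (18.2 to 42.9) of CNS NK cells. The share was 13.9% (10.2 to 18.3) in choroid plexus, 9.85% (5.46 to 16.0) in pia, 9.42% (6.24 to 13.5) in CSF and 6.75% (4.38 to 9.87) in dura. Unthinned, these were 55.5%, 55.2%, 20.6%, 10.4%, 19.6% and 10.1% in that order. In the B clusters of blood, CSF and dura, where B cell markers were present, the thinned share was 0.276%, 0% and 0.131%. In CNS and pia the larger B cluster (Bc2) had B markers at 0 CPM, so no such background is given there or for choroid plexus.

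An NKG2 gene was expected in 16.7% (13.0 to 20.9) of thinned dura NK cells, against 10.9% (6.43 to 16.8) in blood, 12.7% in choroid plexus, 9.22% in CNS, 7.23% in pia and 6.92% in CSF. The unthinned shares were 35.0% in dura and 40.6% in blood. Cells with both kinds of receptor made up 3.06% in blood, 3.18% in CNS and 0.568% to 1.74% in the other tissues after thinning. Thinning left out 24 pia cells and 5 choroid plexus cells as too shallow.

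Rat CD8 T cells carried part of the set. The cluster named CD8 Tc held 56 cells in blood, 52 in CSF and 114 in dura, with Cd8a at 976 to 1663 CPM in these 3 libraries. In blood it had the highest level of any lymphoid cluster for Klra22 (505 CPM), well above the NK cells of the same library. Ly49s6 (396 CPM) was close to its level in those NK cells. Klra22 was 131 CPM in CSF and 101 in dura, so blood was 3.84-fold (2.25 to 6.99) and 4.98-fold (2.92 to 9.05) higher. Ly49s6 was 49.2 in CSF and 184 in dura, with blood 8.05-fold (3.54 to 22.6) and 2.16-fold (1.39 to 3.43) higher.

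Klrd1 measured 865 CPM in blood, 714 in CSF and 1141 in dura in these T cells. Klrk1 measured 154, 131 and 177 CPM. Klrg1 had no UMI in the CD8 cluster of any library, and Ncr1 had 0 to 2 UMIs in each. Of 7 counted genes, 5 were at least 2-fold lower in CSF and 0 higher, beside 21.5% and 6.07% of all genes. Of 8 in dura, 2 were lower and 0 higher, beside 10.3% and 9.57%. The clusters of choroid plexus (37 cells) and pia (31) were too small for a comparison, and their Ly49s6 levels were 526 and 214 CPM.

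In the cluster named CD4 Tc, Cd4 was at 0 to 15.0 CPM and Cd8a at 126 to 440 CPM. Cd4 was low in the other lymphoid clusters too, with 0 UMIs in CD8 Tc of blood, CSF and dura, so it cannot decide the name. In blood, the 2 Cd8 genes summed to 553 CPM in CD4 Tc against 2188 in CD8 Tc. CD4 Tc held 53 to 1531 cells per library, and its summed receptor level was 244 to 815 CPM, against 4022 to 8248 in NK cells. Cells with a Cd3 UMI made up 99.6% of it in blood, 95.6% in CSF and 66.0% to 82.8% in the sorted tissues. After thinning to 500 UMIs the shares were 88.7% in blood, 70.4% in CSF, 57.2% in CNS, 64.4% in pia, 60.9% in dura and 78.2% in choroid plexus. The part of cells without a Cd3 UMI in its receptor values was not tested.

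In that cluster, at least 2-fold higher than in blood were 1 of 8 genes in CSF, 3 of 7 in CNS, 4 of 8 in pia, 4 of 10 in dura and 3 of 7 in choroid plexus, beside 10.4%, 11.2%, 10.9%, 13.6% and 9.31% of all genes. In each of the 5 comparisons 1 gene was that much lower, beside 14.4%, 13.7%, 22.0%, 14.7% and 20.1%. Klrd1 was 144 CPM in blood, 384 in choroid plexus (2.66-fold, 1.96 to 3.54) and 304 in pia (2.10-fold, 1.69 to 2.60). Klrc1 and Klrc3 had 0 UMIs in blood and 30 and 31 in dura, at least 22.3-fold and 23.1-fold higher there. Klrb1a was 6.76 CPM in blood and 25.9 in dura (3.83-fold, 1.90 to 8.004).

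In mouse dura the Ly49 sum of the NK cluster was 1031 CPM (946 to 1121) in naive and 973 (919 to 1030) in EAE, a ratio of 1.06 (0.955 to 1.17). The sum of the other 14 genes was 2855 CPM (2713 to 3002) in naive and 1979 (1901 to 2059) in EAE, 1.44-fold (1.35 to 1.54) lower in EAE. With deep cells (5722 or more UMIs, 28 naive cells left) both sums were lower in EAE, 1.30-fold (1.14 to 1.48) and 1.26-fold (1.15 to 1.39). Neutrophil genes in this cluster summed to 5026 CPM in EAE against 139 in naive, and macrophage genes to 1529 against 158. Dissociation stress genes summed to 2267 CPM in EAE against 6091 in naive. The part of these in the differences was not tested.

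Of 17 counted genes in NK cells, 1 was at least 2-fold higher and 3 at least 2-fold lower in EAE, beside 8.01% and 7.06% of all genes. The members' median log2 ratio was -0.34, against -0.02 over all genes. The receptors that were lower were Klra9, Klrb1b and Klrd1, and Klrb1a was higher. A Cd3 UMI was found in 24.5% of naive and 29.2% of EAE cells.

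Klra9, which encodes Ly49I in this strain, was 256 CPM in naive and 69.2 in EAE, 3.70-fold (2.80 to 4.90) lower. Other Ly49 genes lay the other way: Klra7 was 216 in naive and 336 in EAE (1.55-fold higher, 1.26 to 1.93), and Klra4 was 216 and 281 (1.30-fold higher, 1.05 to 1.62). The Klra4 UMIs came from 21 of 106 naive and 49 of 154 EAE cells, and those of Klra7 from 25 and 81. The intervals do not cover this spread over cells. Among cells of 5722 or more UMIs (28 naive cells), the Ly49 sum was 1266 CPM (1122 to 1422) in naive and 973 (919 to 1030) in EAE. The higher EAE levels of Klra7 and Klra4 are thus given for all cells only, without regard to depth. Klra8, the cytomegalovirus receptor Ly49H, was 182 in naive and 180 in EAE. Klra9 shares the largest part of its 3' end with other genes of all members, and the part of that in its lower level was not tested. Klra3 and Klra1 were at 94.0 and 45.1 CPM in naive and 57.9 and 24.9 in EAE. Klra1 rested on 24 and 31 UMIs and its log2 ratio turned from -0.86 to 0.40 without cells carrying a Cd3 UMI.

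Klrd1 was 842 CPM in naive and 417 in EAE (2.02-fold lower, 1.77 to 2.29), and its partner Klrc1 was 305 and 156 (1.95-fold lower, 1.57 to 2.42). Klrc2, the activating partner NKG2C, was 169 and 117. Klrk1 was 318 and 303, Klre1 440 and 300, Klri2 117 and 92.5, and Ncr1 137 and 109 CPM, none past 2-fold. Of the NKR-P1 genes, the inhibitory Klrb1b was 263 in naive and 124 in EAE (2.13-fold lower, 1.68 to 2.69). Klrb1a was 35.7 in naive and 104 in EAE (2.90-fold higher, 1.79 to 4.98).

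Klrb1c, which encodes NK1.1, was 156 and 185 CPM, and Klrb1f 67.7 and 64.4. With 5722 or more UMIs per cell, Klrb1b was at 139 CPM in naive and 124 in EAE, so its 2-fold difference did not persist. Klrd1 was then at 839 and 417, Klra9 at 166 and 69.2, and Klrb1a at 26.9 and 104.

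**Figure D4:**
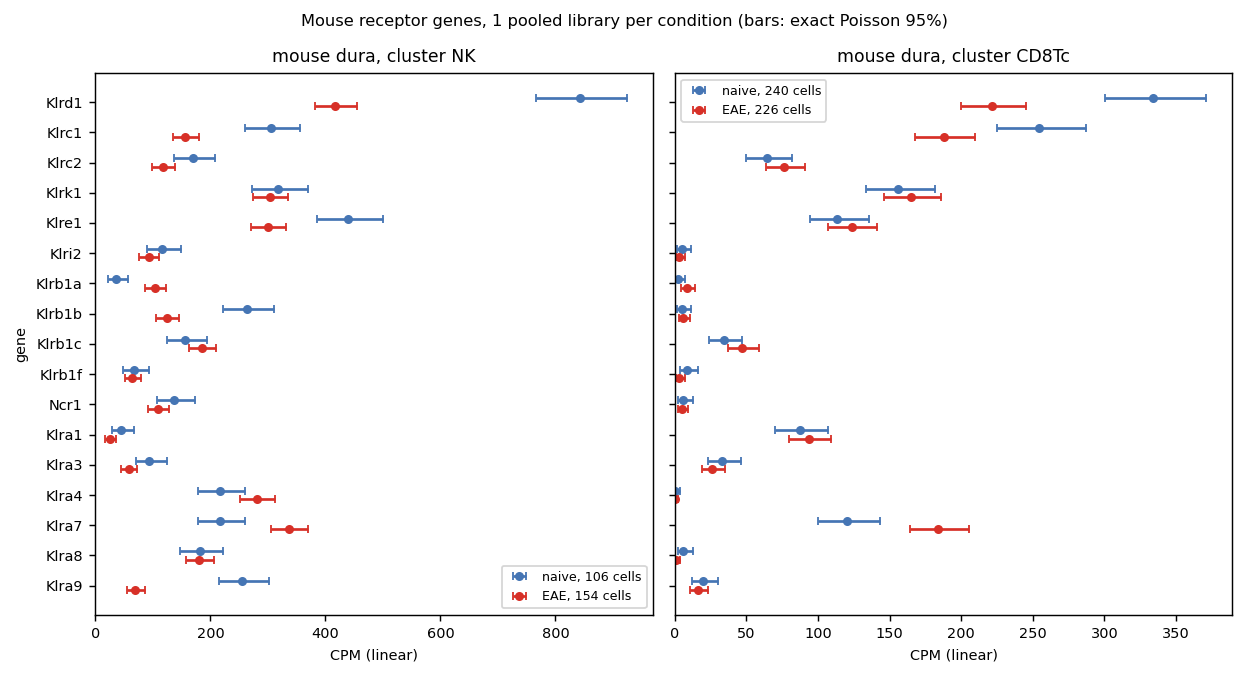
CPM of 17 receptor genes in the mouse NK cluster (left) and CD8Tc cluster (right), naive in blue and EAE in red, 1 pooled library per condition, linear axes with exact Poisson 95% intervals. In NK cells Klrd1 lies at 842 in naive and 417 in EAE, and in CD8 T cells Klra4 and Klra8 lie near 0 in both.

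After thinning to 1000 UMIs, a Ly49 gene was expected in 42.3% (32.7 to 52.2) of naive and 50.1% (41.9 to 58.2) of EAE NK cells. An NKG2 gene was expected in 36.4% (27.3 to 46.3) of naive and 23.4% (16.9 to 30.9) of EAE cells, and both kinds in 13.4% and 11.2%. The unthinned NKG2 shares were 76.4% and 76.0%, at median depths of 4319 and 7307 UMIs. In the naive B clusters a Ly49 gene was expected in 1.71% and an NKG2 gene in 0.384% of cells. The EAE B clusters give no clean background, since most of their cells lay in a cluster (BcProg) with B markers at 207 CPM and macrophage genes at 15440 CPM.

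Some Ly49 genes of mouse NK cells were near 0 in CD8 T cells, and others were shared. Klra4, the activating Ly49D, had 0 UMIs in both CD8Tc libraries, and Klra8 was at 5.68 CPM in naive and 0.588 in EAE there. Klra1 (Ly49A, inhibitory) was higher in the CD8 T cluster, with 87.1 CPM in naive and 93.4 in EAE, than in NK cells, with 45.1 and 24.9. Klra6 was at 22.7 and 45.8 CPM in CD8 T cells and had 4 and 11 UMIs in NK cells. Klra7, Klra3 and Klra9 were present in both, in CD8 T cells at 120 and 184 CPM for Klra7, 33.1 and 25.9 for Klra3 and 19.9 and 15.9 for Klra9.

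In CD8 T cells the Ly49 sum was 296 CPM (264 to 331) in naive and 371 (342 to 401) in EAE. The other 14 genes summed to 997 CPM (938 to 1059) in naive and 847 (804 to 892) in EAE. After thinning to 1000 UMIs, a Ly49 gene was expected in 13.8% (9.64 to 18.8) of naive and 23.9% (18.5 to 30.0) of EAE cells. Of 11 counted genes, 1 was at least 2-fold higher in EAE (Klra6, 2.02-fold, 1.26 to 3.33, named after its value was seen) and 0 lower, beside 6.38% and 7.92% of all genes. Klrd1 was 334 CPM in naive and 222 in EAE, Klrc1 255 and 188, Klrk1 156 and 165, and Klre1 114 and 123.

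The CD4Tc and ILC clusters differed more, but their cells were not alike in the 2 libraries. A Cd3 UMI was found in 39.9% of naive and 96.7% of EAE cells of CD4Tc, and in 10.7% of naive and 71.7% of EAE cells of ILC. Neutrophil genes were at 146 CPM in naive and 7085 in EAE in CD4Tc, and at 170 and 4603 in ILC. Dissociation stress genes were at 8770 and 1913 CPM in CD4Tc and at 15864 and 6338 in ILC. The part of these in the differences was not tested. In CD4Tc, 5 of 6 genes were at least 2-fold higher in EAE and 1 lower, beside 17.1% and 9.32% of all genes. In ILC the counts were 4 and 1 of 5, beside 27.9% and 7.60%.

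Klrc1 stood out in both. It was 5.50 CPM in naive and 106 in EAE in CD4Tc (19.3-fold higher, 9.12 to 48.9), and with cells carrying a Cd3 UMI only, 11.7 and 111 CPM. In ILC its 3 naive UMIs against 24 in EAE gave a ratio of 44.1 (13.4 to 229). Klrd1 followed in CD4Tc with 15.7 and 119 CPM, and with Cd3-carrying cells only, 36.9 and 124. Klrg1 lay the other way, with 37.7 CPM in naive and 6.98 in EAE in CD4Tc (5.41-fold lower, 2.62 to 12.5). Each of the 10 Ly49 genes had at most 5 UMIs in either cluster of either library.

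In the γδ T cluster (gdTc), 0 of 3 counted genes passed 2-fold in either direction, beside 8.35% higher and 8.41% lower of all genes. Klrk1 was 39.3 CPM in naive and 66.7 in EAE there. Treg cells (116 in EAE, 30 in naive, too few for a comparison) held the highest Klrg1 level of all mouse clusters, 171 CPM in EAE, and 164 in naive from 23 UMIs. Of the mouse genes not described in full, Klrg2, Klri1, Klra17, Klra5 and Klra2 were at most 11.3 CPM in NK cells.

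Some of the genes were highest outside lymphoid cells. Rat Ly49si1 had 4601 UMIs in all, and its level in the cluster myeloid3 was 680 CPM in blood (647 to 715), 409 in dura, 246 in choroid plexus, 227 in CSF, 201 in pia and 177 in CNS. In myeloid1 it was 447 CPM in blood, 327 in dura, 316 in pia, 222 in CNS and 120 in choroid plexus. Its NK level of 52.1 CPM in blood was thus far below that of the myeloid cells of the same library. Ly49i2, whose promoter is the closest to that of Ly49si1, had fewer than 10 UMIs in each myeloid, dendritic, microglial and granulocyte cluster.

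Klrc3 was highest in the dendritic cluster mDC1, with 679 CPM in dura (608 to 757), 377 in choroid plexus and 754 in pia, the last from 20 cells. In dura NK cells it was 266 CPM. Klri1 was also present in mDC1, at 143 CPM in dura, 219 in choroid plexus and 348 in pia (12 UMIs). Klra2 was spread over plasmacytoid dendritic cells (pDC, 188 CPM in dura), granulocytes (129 in CSF) and microglia (73.3 in CNS, from 598 UMIs).

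**Figure D5:**
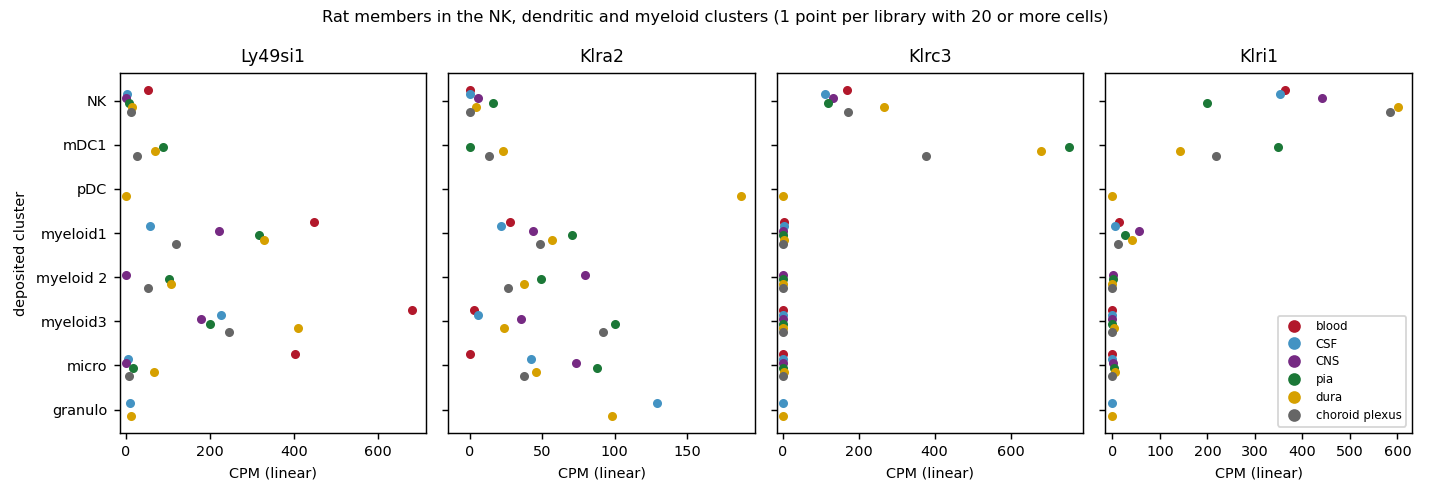
CPM of Ly49si1, Klra2, Klrc3 and Klri1 in rat NK, dendritic, myeloid, microglial (micro) and granulocyte (granulo) clusters. Each point is a library with at least 20 cells of the cluster. Ly49si1 reaches 680 in myeloid3 of blood, and Klrc3 reaches 679 in mDC1 of dura against 266 in NK cells of dura.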

How the data were processed

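The deposited matrices hold counts (UMIs per gene and cell) that the authors made with Cell Ranger 3.1.0 on Rnor_6.0 (rat) and mm10 (mouse), per the submitters' processing notes. Per the file headers, rat counts carry version 3.0.2 of that program. Clusters are those of the deposited annotation. Barcodes without a cluster were left out, doublets were neither called nor removed here, and the B cell receptor tables were not used.

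Counts were summed per cluster and library and expressed as CPM. A ratio was computed for genes with 20 or more UMIs over both sides and clusters of 50 or more cells, and 2-fold was the threshold. A ratio against 0 UMIs used a floor of 3 counts over the group. Levels have exact Poisson, ratios exact conditional binomial and shares Clopper-Pearson 95% intervals, all covering counting error only. Shares were thinned to 500 UMIs per rat and 1000 per mouse cell. In total 243 barcode sequences occurred in more than 1 rat library (1.16%) and 7 in both mouse libraries (0.0953%).

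A gene was described when it reached 50 CPM with 20 or more UMIs in a lymphoid cluster of 50 or more cells, which gave 19 rat and 18 mouse genes. Members and lists were chosen with earlier results of these data known. For the mouse groups, titles were used where another label named EAE for both. Ratios, intervals and thinning were tested on simulated data. Alternatives were other totals (TMM, edgeR 4.0.16 in R 4.3.3), equal weights per cell, depth minimums, other UMI minimums, cells without Cd3 or without B and myeloid markers, and deeper thinning. Computation used scipy 1.17.1, pandas 2.3.3, numpy 2.4.6, biopython 1.88 and matplotlib 3.10.9 under Python 3.11.15.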

Additional observations from a re-analysis of the deposited data

Results flagged for a closer look

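Several receptors lay on opposite sides of the reference in 2 clusters of the same library. Each value is a log2 ratio of 1 library over 1 library, and the differences between clusters were not tested. Rat Klrb1a in CSF over blood was 1.36 in the CD4 Tc cluster, -1.18 in NK cells and -1.18 in CD8 T cells, and in pia over blood it was 1.69 in CD4 Tc and -2.29 in NK cells. Rat Ly49s6 in choroid plexus over blood was 2.24 in CD4 Tc (5 UMIs in choroid plexus) and -1.04 in NK cells. Rat Ly49si1 in dura over blood was 1.03 in CD4 Tc and -1.89 in NK cells. This gene was highest in myeloid clusters. Macrophage genes summed to 2482 CPM in dura against 727 in blood in CD4 Tc, and to 4241 against 1353 in NK cells. The part of myeloid RNA in these ratios was not tested.

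In mouse dura, EAE over naive, Klrb1b was 2.15 in CD4Tc and -1.09 in NK cells. Klrd1 was 2.93 in CD4Tc, 3.52 in ILC and -1.01 in NK cells. The CD4Tc and ILC clusters held different shares of cells with a Cd3 UMI in the 2 libraries.

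Barcodes that the deposited annotation gave no cluster also held these genes. Their summed level was 89.3 CPM (83.2 to 95.7) over 5114 rat barcodes and 104 CPM (98.4 to 110) over 771 mouse barcodes.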

How the results depend on the processing

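No paired analysis was possible because each group was 1 library. Of the numbers of genes past 2-fold and similar counts, 94 stayed within 1.5 times and 30 moved. Of the log2 ratios of single genes and of the family sums, 1308 stayed within the counting interval, 62 moved and 5 turned sign. A turned sign was counted only where the main ratio was at least 2-fold. The 1308 include the alternatives with other UMI minimums, which only choose genes and cannot change the ratio of a gene. In rat NK cells the counts lay between 11 and 13 in CSF, 9 and 10 in dura and 7 and 10 in choroid plexus. CNS (5) became 3 with a minimum of 50 UMIs and 3 without Cd3 cells. Pia (8) became 5 with TMM totals, 14 with cells weighted equally, 4 with cells of 1000 or more UMIs and 5 without Cd3 cells. In CD8 Tc, CSF (5) became 3 with TMM and 8 with no minimum, and dura (2) became 8 with no minimum. In CD4 Tc, 50 UMIs gave 1 in CSF (2), 0 in CNS (4), 2 in pia (5), 0 in dura (5) and 1 in choroid plexus (4); no minimum gave 4 in CSF, 10 in CNS, 10 in pia and 9 in choroid plexus; the marker filter gave 1 in CSF and 2 in CNS; and 1000 UMIs per cell gave 1 in pia. Receptors seen in 10% or more of NK cells numbered 9 in CSF (4) and 11 in pia (3) when thinned to 1000 UMIs. Mouse CD8Tc (1) became 2 with equal weights, 2 (both lower) with 5722 UMIs per cell and 6 with no minimum, gdTc (0) became 1 with no minimum, and ILC (5) became 3, 1 and 8 with 5722 UMIs per cell, 50 UMIs and no minimum. Signs turned in pia NK cells of 1000 or more UMIs for Ly49i2 (0.015), Klra5 ENSRNOG00000058775 (0.60) and Klra5 ENSRNOG00000062297 (0.12), without Cd3 cells for Ly49si1 (0.32, from 0 UMIs set to the floor, which gives no direction), and in mouse ILC with 5722 UMIs per cell for Klrb1b (-0.13). Except where fewer cells or genes entered, the cause was not tested. TMM moved the all-gene median by 0.20 in CSF, 0.18 in pia and 0.20 in choroid plexus NK cells, 0.40 and 0.34 in CSF CD8 Tc and CD4 Tc, and -0.23 and -0.55 in mouse CD4Tc and ILC. The marker filter in mouse (0 or 1 EAE cells left), 5722 UMIs per cell in CD4Tc (14 naive cells) and ILC without Cd3 cells (15 EAE cells) were not run. Small clusters (58 CNS NK cells) and shallow pia cells limit the precision.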

Other observations

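Mouse dendritic cells carried several of these receptors. Klrd1 was at 432 CPM (367 to 506) in naive and 310 (280 to 342) in EAE plasmacytoid dendritic cells, and at 287 and 333 in the cluster mDC2, levels like those of CD8 T cells (334 and 222). Klrk1 in mDC2 was 70.9 CPM (59.4 to 84.1) in naive and 233 (223 to 244) in EAE, in mDC1 127 and 189, and in myeloid3 59.7 (10 UMIs) and 189. Klrb1b in mDC2 was 43.2 and 153 CPM. Klra17 was highest in plasmacytoid dendritic cells, at 83.7 CPM in naive and 71.2 in EAE. Klra2 was mainly a gene of macrophage and monocyte clusters, at 92.8 and 108 CPM in myeloid1 and 114 and 128 in myeloid2.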
